A study of Mus musculus with 8 samples.

Results

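Cell cycle and DNA replication genes were examined in the livers of 8 male C57BL/6J mice on a high-fat diet. The genes were a list of 43 chosen by name, and every array probe whose current or older symbol is one of them was taken (Cdk1, for example, is listed on the array as Cdc2a). This gave 93 probes of 45281 on the array, for 43 of 28908 gene symbols. All 8 mice were fed from 6 weeks of age a diet with 60% of calories from fat, and after 14 weeks on it they were injected intraperitoneally with an ASO (antisense oligonucleotide), a chemically made single strand used to reduce its matching RNA, in 2 doses of 25 mg/kg each week for 3 weeks. In 4 mice the ASO targeted Mogat1, the gene of monoacylglycerol acyltransferase 1, and in the other 4 it was a scrambled control. There was no group on a standard diet and none without an ASO. Every mouse is listed as 25 weeks old, which is more than the schedule adds up to. Liver RNA was measured on 1 Illumina single-colour bead array per mouse, so p-values measure the spread between these 8 samples.

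A cell that leaves rest first makes D-type cyclins, whose kinases Cdk4 and Cdk6 phosphorylate the retinoblastoma protein and so release E2F transcription factors. E2F factors switch on genes for DNA replication, among them the MCM helicase subunits and the enzymes that supply deoxynucleotides. Genes for mitosis come on later, together with the cyclin B kinase Cdk1. Most hepatocytes of an adult liver rest outside the cycle but can re-enter it after loss of tissue, and resident immune, endothelial and bile duct cells can divide too. In whole-liver RNA, more cells of a type and more RNA per cell cannot be told apart.

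The 43 members were sorted by role into 10 genes of origin licensing and the replication fork, 4 of nucleotide supply, 8 G1 cyclins and kinases, 17 genes of S phase to mitosis, and 4 brakes and E2F genes. A difference was called where the adjusted p of limma's test over all 16487 detected probes was under 0.05. A level below is a background-corrected, quantile-normalized log2 intensity. The members called were Mcm6, Cdc20, Plk1 and E2f1, all higher in Mogat1 ASO livers. Regulatory letters upstream of Mcm6, Cdc20 and Plk1 are shown because replication genes are classically read through E2F sites and mitotic genes through a cell cycle homology region (CHR) paired with CCAAT boxes. These are the 250 bases before the RefSeq start (GRCm38.p6), written 5′ to 3′ on the gene's strand, with capitals marking the E2F core (TTCCCGC or TTGGCGC), the CHR (TTTGAA or TTCGAA) and the CCAAT box (CCAAT, or ATTGG where it lies on the other strand). The Mcm6 window is chr1:128359706-128359955 (minus strand), that of Cdc20 is chr4:118437344-118437593 (minus strand) and that of Plk1 is chr7:122159185-122159434 (plus strand).
Mcm6: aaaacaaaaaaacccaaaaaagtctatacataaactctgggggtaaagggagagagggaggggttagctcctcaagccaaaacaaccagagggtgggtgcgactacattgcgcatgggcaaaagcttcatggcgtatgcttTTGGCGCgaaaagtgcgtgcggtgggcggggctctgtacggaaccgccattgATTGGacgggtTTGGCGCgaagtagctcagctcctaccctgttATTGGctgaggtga
Cdc20: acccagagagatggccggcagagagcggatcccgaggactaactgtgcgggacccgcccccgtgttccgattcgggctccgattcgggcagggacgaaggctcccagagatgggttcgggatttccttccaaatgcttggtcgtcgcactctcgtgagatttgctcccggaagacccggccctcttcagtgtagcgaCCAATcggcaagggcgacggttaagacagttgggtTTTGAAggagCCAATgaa
Plk1: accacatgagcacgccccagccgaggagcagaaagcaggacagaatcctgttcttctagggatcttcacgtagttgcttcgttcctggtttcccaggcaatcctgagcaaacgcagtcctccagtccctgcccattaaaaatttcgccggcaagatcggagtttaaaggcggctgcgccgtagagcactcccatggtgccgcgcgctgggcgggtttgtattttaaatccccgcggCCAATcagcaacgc

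The Mcm6 window held 2 E2F cores, at 109 to 103 and 46 to 40 bases before the start, and 2 CCAAT boxes on the other strand. The Cdc20 window held 1 CHR, at 18 to 13 bases before the start, and 2 CCAAT boxes. The Plk1 window held 1 CCAAT box and neither of the other motifs in these letters. The start listed for E2f1 lies 466 bases inside the gene, so its window is not printed. Both strands were searched, and ATTGG shares letters with TTGGCGC, so those matches could overlap; they did not in these windows.

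The table held 37 promoter windows for 34 of the 43 members. An E2F core was present in 11 of the 37 windows (29.7%) against 5.62% of all 32851 windows, a CHR in 10 (27.0%) against 17.1%, and a CCAAT box in 25 (67.6%) against 33.8%. By role, the E2F core was in 5 of 9 licensing and fork windows (55.6%). The CHR was in 8 of 14 windows of S phase to mitosis genes (57.1%), and the CCAAT box in 13 of those 14 (92.9%). These shares describe the chosen genes and were not tested.

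Before the values, the arrays themselves: the median raw signal was 84.3 to 112.0 in control and 88.7 to 110.2 in Mogat1 ASO livers, and 34.9% to 37.2% and 34.9% to 37.4% of all probes were detected (detection p under 0.05). The single Mogat1 probe was detected on none of the 8 arrays (lowest detection p 0.814), so the knockdown could not be read here. Mogat1 ASO replicate 1 lay apart on the second principal component (34.4, against -15.7 to 13.9 on the other arrays, where 13.9 belongs to control ASO replicate 1). Of 10 hepatocyte markers, 7 were tested, including Apoa1 and Ttr, while the probes of Alb, Tat and Fgb were detected on no array. Since Alb is abundant in every mouse liver, an undetected probe is not read here as a missing transcript.

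Of the 43 genes, 20 were detected by at least 1 probe on all 8 arrays and 9 on none. The 20 were Mcm2 to Mcm6, Cdt1, Rrm1, Tk1, Tyms, Ccnd1, Ccnd2, Ccnd3, Cdk2, Cdk4, Birc5, Bub1b, Cdkn1b, Cdkn2c, E2f1 and Rb1. The 9 were the licensing genes Cdc6 and Gmnn, the polymerase clamp Pcna, and Bub1, Ccna2, Ccnb2, Cks2, Stmn1 and Ube2c of S phase to mitosis.

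The 14 remaining members were detected on some arrays. In 10 of them more Mogat1 ASO than control arrays gave a signal (Ccne2, Cdk6, Aurka, Aurkb, Ccnb1, Cdc20, Cdk1, Mki67, Plk1 and Top2a), in 2 more control arrays did (Ccne1 and Cks1b), and in 2 the number was equal (Mcm7 and Rrm2). Ccne2, Aurkb, Ccnb1, Mki67, Plk1 and Top2a were detected on no control array, and Ccne1 and Cks1b on no Mogat1 ASO array. The same split is not given over all genes, so it is not read as particular to these members. Mki67 and Top2a had 3 probes each and Ccnb1 had 2, of which only 1 per gene was detected on any array. Mki67, which encodes the proliferation antigen Ki-67, was detected on 3 Mogat1 ASO arrays, Top2a, a DNA topoisomerase that untangles chromosomes, on 2, Aurkb, a kinase of chromosome segregation, on 2, and the cyclins Ccnb1 and Ccne2 on 1 each.

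Counted by array, 25, 23, 21 and 24 members were detected in control livers and 26, 32, 26 and 27 in Mogat1 ASO livers, in the order of replicates 1 to 4. Every Mogat1 ASO array was thus above every control array, by as little as 1 gene, with replicate 2 the highest. Of the 93 member probes, 37.6% to 46.2% were detected in control and 44.1% to 55.9% in Mogat1 ASO livers, and these ranges overlap. Near background, such counts rest on small differences in signal.

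**Figure D1:**
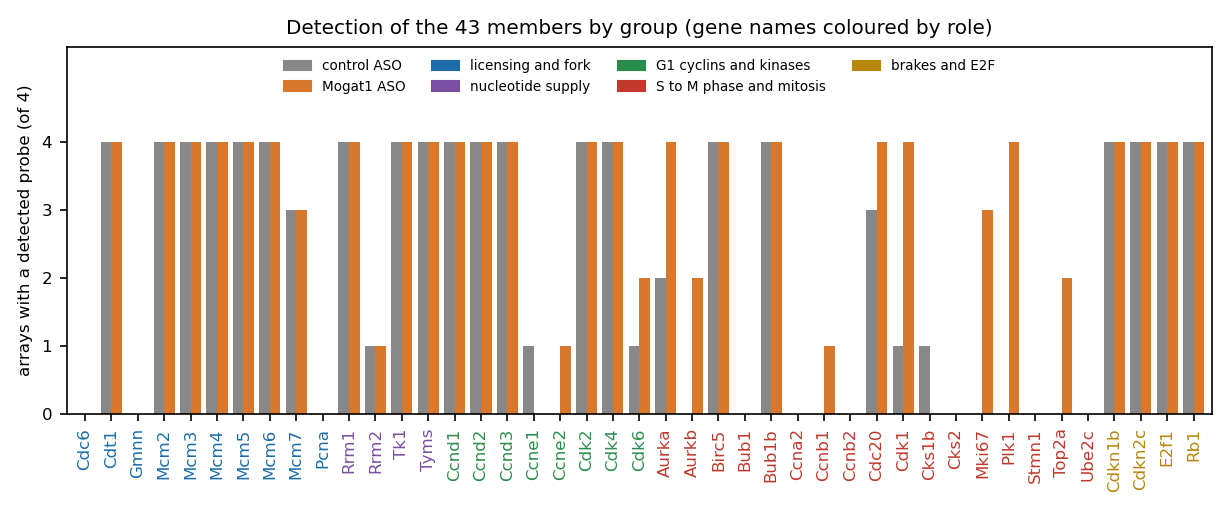
Number of arrays (of 4 per group, y axis) on which at least 1 probe of each of the 43 members (x axis, names coloured by role) was detected at a detection p under 0.05; grey bars are control ASO and orange bars Mogat1 ASO. Mki67, Plk1, Top2a, Aurkb, Ccnb1 and Ccne2 have no grey bar, Ccne1 and Cks1b have no orange bar, and 9 members have no bar at all.

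A probe was tested where it was detected on at least 4 of the 8 arrays, which left 25 members tested and 18 not. Of the 25, 4 were called, all higher (16%), against 13.3% of all 11686 genes called in either direction 7.14% called higher and 6.12% called lower. That count is not far from the share among all genes, and Plk1 passed the filter only through the Mogat1 ASO arrays. Cdc20 was detected on all 4 of those arrays but on only 2 control arrays. Among the 20 members whose tested probe was detected on all 8 arrays, 2 were called (10%), Mcm6 and E2f1, against 13.7% of 10080 genes detected that widely (7.26% higher). The groups did not overlap for 3 of the 25 (Mcm6, Cdc20 and Plk1), each higher in Mogat1 ASO livers, against 19.1% of all genes in either direction and 10.3% higher. The median log2 difference of the 20 was 0.21, with 14 above 0 and 6 below, beside -0.0045 over the 10080 genes.

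By role, 1 of 7 tested licensing and fork genes was called, 0 of 3 of nucleotide supply, 0 of 5 G1 cyclins and kinases, 2 of 6 of S phase to mitosis and 1 of 4 brakes and E2F genes. At an unadjusted p under 0.05, 8 of the 25 passed, all higher, beside 28.8% of all genes in either direction (1772 of 11686 higher and 1596 lower). Plk1, Cdk1 and Cdc20 among them were detected on more Mogat1 ASO than control arrays, so the filter favoured that direction. Of the 20 detected on all 8 arrays 5 passed, all higher, beside 3036 of 10080 genes (1589 higher and 1447 lower). Of those 8 members, 0 were nucleotide supply genes and 1 was a G1 gene. The count of 4 was 1 without control ASO replicate 2 or without control ASO replicate 3 (Mcm6 in both cases), and 2 without Mogat1 ASO replicate 2 or without Mogat1 ASO replicate 3. It was 6 without Mogat1 ASO replicate 1, when Cdk4 and Cdkn2c joined, and 3 without control ASO replicate 4.

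The MCM helicase, a ring of Mcm2 to Mcm7 that opens DNA at replication origins and travels with the fork, had all its subunits tested. Mcm6 had log2 levels of 6.54, 6.58, 6.47 and 6.71 in control livers and 7.27, 7.40, 7.14 and 7.33 in Mogat1 ASO livers. Every Mogat1 ASO array lay above every control array. The rise was 1.63-fold (log2 difference 0.71, SE 0.11, n = 4 each, adjusted p = 0.0027 in limma), and it stayed called in all 20 alternatives that were run, leaving out each array included. A second Mcm6 probe rose as well (0.71, adjusted p = 0.0094 in limma), and another one, detected on 3 of the 4 control arrays, differed by 0.53 without passing (adjusted p = 0.093). Without background correction the Mcm6 fold was 1.35.

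The other MCM subunits did not pass. Mcm2 had levels of 6.43, 6.49, 6.61 and 6.68 in control livers and 6.82, 7.25, 7.23 and 6.58 in Mogat1 ASO livers. Its replicate 4 of the Mogat1 ASO group lay inside the control range, and the difference of 0.42 (95% interval 0.07 to 0.77, adjusted p = 0.113) was called only without that array (0.55, adjusted p = 0.0465). Mcm4 had levels of 8.28, 8.71, 8.87 and 8.72 against 9.04, 9.15, 8.72 and 8.76, and Mcm5 of 7.22, 7.77, 7.76 and 7.64 against 8.10, 8.23, 7.74 and 7.58. In both, replicates 1 and 2 of the Mogat1 ASO group were above every control array and replicates 3 and 4 were not. The differences were 0.27 for Mcm4 (95% interval -0.05 to 0.59) and 0.32 for Mcm5 (-0.05 to 0.69). Mcm3 differed by 0.30 (-0.0017 to 0.61) and Mcm7, detected on 3 arrays of each group, by -0.14 (-0.68 to 0.40), or 0.058 without control ASO replicate 2. The 6 subunits thus ranged from -0.14 to 0.71, with a median of 0.31, and 5 of the 6 differences were above 0. Cdt1, which loads the helicase onto origins, differed by 0.12 (-0.15 to 0.39).

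Genes of nucleotide supply gave no call. Tk1, the thymidine kinase that salvages thymidine, had levels of 9.53, 9.20, 9.60 and 8.95 in control livers and 9.32, 8.65, 8.80 and 9.04 in Mogat1 ASO livers. The groups overlapped, with 2 Mogat1 ASO arrays below every control array. The difference was -0.37 (95% interval -0.75 to 0.01, adjusted p = 0.191), and the other tested Tk1 probes differed by -0.38 and -0.27, neither called. A further Tk1 probe was detected on 3 control arrays and on no Mogat1 ASO array and was not tested. Its levels were 4.77 to 6.03 in control and 4.67 to 5.16 in Mogat1 ASO livers, and these ranges overlap. Tyms, the thymidylate synthase, had levels of 8.39, 7.98, 8.25 and 8.43 against 8.09, 8.27, 7.86 and 7.98, a difference of -0.21 (-0.50 to 0.07). Rrm1, the large subunit of ribonucleotide reductase, which turns ribonucleotides into deoxynucleotides, differed by 0.11 (-0.16 to 0.39), and a second probe by 0.38 without passing (adjusted p = 0.0876). Its small subunit Rrm2 had a signal on 1 array of each group and was not tested.

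G1 cyclins and kinases gave no call either. Ccnd1, the cyclin through which growth signals reach the hepatocyte cell cycle, had levels of 9.38, 10.55, 10.45 and 10.44 in control livers and 10.04, 9.91, 9.79 and 9.63 in Mogat1 ASO livers. Control ASO replicate 1 was the lowest of all 8 arrays, while the other 3 controls lay above every Mogat1 ASO array. The difference was -0.36 (95% interval -0.86 to 0.13, adjusted p = 0.323). Without that control array it was -0.64 and was called (adjusted p = 0.006), so 1 array decides it; the other tested probes of Ccnd1 differed by -0.37 and -0.53. Ccnd3, another D-type cyclin, had levels of 10.41, 10.34, 10.27 and 10.36 against 10.38, 10.48, 10.60 and 10.38. Its groups overlapped and the difference was 0.12 (-0.07 to 0.30). Ccnd2 differed by -0.03 (-0.28 to 0.23), and this sign changed without control ASO replicate 4, Mogat1 ASO replicate 2 or Mogat1 ASO replicate 4.

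Cdk4, the kinase partner of D-type cyclins, had levels of 8.96, 8.62, 8.62 and 8.88 in control livers and 8.83, 9.17, 9.27 and 9.17 in Mogat1 ASO livers. Mogat1 ASO replicate 1 lay inside the control range and the other 3 lay above it. The difference of 0.34 (95% interval 0.07 to 0.61) did not pass (adjusted p = 0.0989). It was 0.43 without that array and passed (adjusted p = 0.0222), while a second Cdk4 probe differed by 0.01. Cdk2, the partner of cyclin E, differed by -0.20 (-0.43 to 0.04), and its other 3 tested probes by -0.13 to -0.02. Cdk6, Ccne1 and Ccne2 were detected on too few arrays to test.

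**Figure D2:**
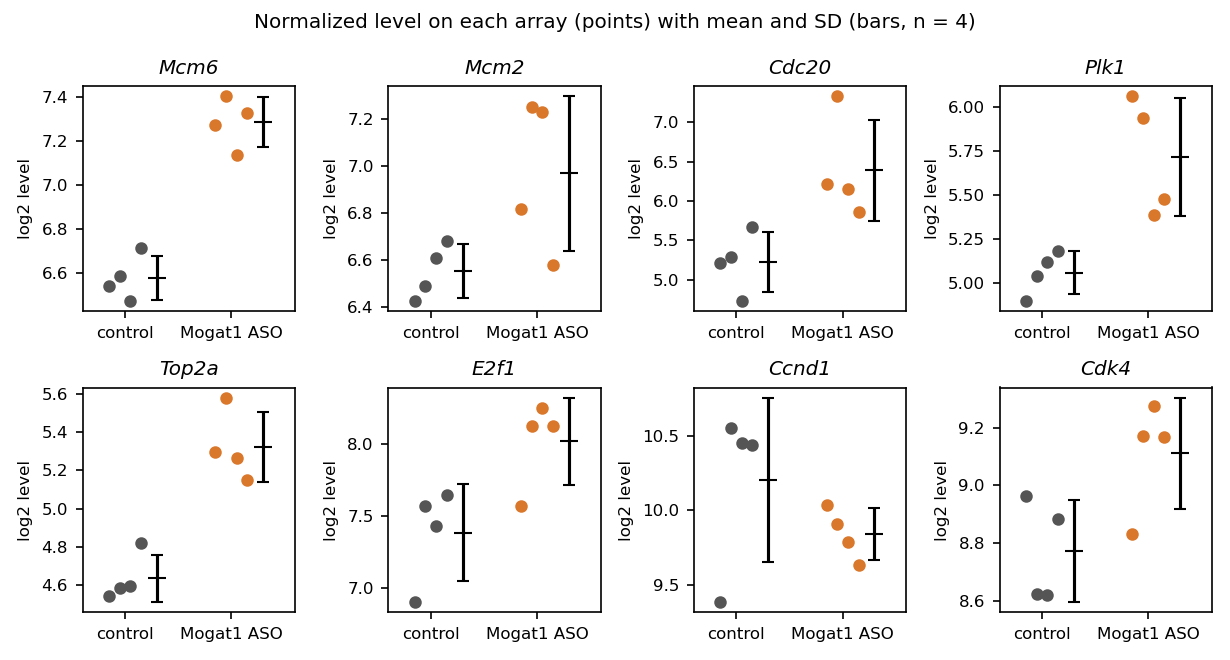
Normalized log2 level (y axis) of 8 members on each array, with control ASO arrays as grey points, Mogat1 ASO arrays as orange points, and a bar for the mean and SD of each group (n = 4). The groups do not overlap for Mcm6, Cdc20, Plk1 and Top2a, and the low control point of Ccnd1 is replicate 1 at 9.38.

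Among genes of S phase to mitosis, Cdc20 and Plk1 were called. Cdc20, which activates the ubiquitin ligase that starts anaphase, had levels of 5.21, 5.29, 4.73 and 5.67 in control livers and 6.21, 7.33, 6.15 and 5.86 in Mogat1 ASO livers. The groups did not overlap, and Mogat1 ASO replicate 2 was the highest array. The probe was detected on 2 control arrays and on all 4 Mogat1 ASO arrays, so the Mogat1 ASO arrays alone met the filter. Not all control levels were detected. Neither the p below nor the lack of overlap is therefore taken as support for a group difference. The rise was 2.24-fold (log2 difference 1.16, SE 0.29, n = 4 each, adjusted p = 0.0256 in limma), 1.80-fold without Mogat1 ASO replicate 2 and 1.45-fold without background correction. Cdc20 was no longer called without control ASO replicate 2 (0.0605), control ASO replicate 3 (0.0781) or Mogat1 ASO replicate 3 (0.0501). A second Cdc20 probe differed by 0.58 and did not pass (adjusted p = 0.182), and the call also ended with the mean of the gene's probes (0.0618). Not tested were a probe detected on 2 Mogat1 ASO arrays and no control array, and a probe detected on no array.

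Plk1, a kinase that drives entry into and passage through mitosis, had levels of 4.90, 5.04, 5.12 and 5.18 in control livers, none of them detected, and 6.06, 5.93, 5.38 and 5.48 in Mogat1 ASO livers, all detected. The groups did not overlap. The fitted log2 difference of 0.65 had an adjusted p of 0.0268 in limma, but it uses control levels that were not detected. Plk1 passed the filter only through the Mogat1 ASO arrays, so neither that p nor the lack of overlap is taken as support for a group difference. Against the lowest level that counted as detected on the control arrays, Plk1 was at least 1.34-fold higher. That bound holds for the background correction and offset used: the fitted fold was 1.20 without the correction and 1.29 with an offset of 50. Plk1 was no longer called without control ASO replicate 1 (0.0594), control ASO replicate 2 (0.0702), control ASO replicate 3 (0.0578) or Mogat1 ASO replicate 2 (0.0705). It was also lost with the replicate number as a block (0.0516) and without both arrays numbered 1 (0.0755), the latter an alternative chosen after the data were seen.

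Top2a was not tested, being detected on 2 of the 8 arrays, yet its groups did not overlap either. Its levels were 4.54, 4.58, 4.60 and 4.82 in control livers and 5.30, 5.58, 5.27 and 5.15 in Mogat1 ASO livers. Only 2 of the 4 Mogat1 ASO arrays detected it, so no bound on its fold is given. With the filter lowered to 1 detected array it had an adjusted p of 0.0073 in limma. It passed that filter only through the Mogat1 ASO arrays, where it was high, so neither the p nor the lack of overlap is support for a difference. Mki67 had levels of 4.59 to 5.29 in control and 4.95 to 5.78 in Mogat1 ASO livers, and these ranges overlap. Ccnb1, the cyclin partner of Cdk1 at mitosis, had a level of 6.07 on Mogat1 ASO replicate 2 and of 4.54 to 4.90 on the other 7 arrays.

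Birc5, which encodes survivin, a protein of the chromosomal passenger complex, gave unequal answers from its 3 probes, all with higher means in Mogat1 ASO livers. The dimmest, detected on 2 Mogat1 ASO arrays and no control array, was not tested. The probe with the higher signal had levels of 6.15, 6.06, 6.65 and 6.32 in control livers and 6.62, 7.25, 6.44 and 6.55 in Mogat1 ASO livers. Those groups overlapped, and the difference of 0.42 (95% interval -0.0041 to 0.84) did not pass (adjusted p = 0.183). Another Birc5 probe was detected on no control array and on all 4 Mogat1 ASO arrays. It was at least 1.48-fold higher under the background correction and offset used. Its fitted log2 difference of 0.87, which uses undetected control levels, was called (adjusted p = 0.0146 in limma). That probe passed the filter only through the Mogat1 ASO arrays, as Plk1 did, so its p is not taken as support for a group difference. The call that Birc5 gained with the mean of its tested probes (0.64, adjusted p = 0.046 in limma) takes in that probe too. Over all tested probes of the members, 6 of 43 were called, this Birc5 probe and that of Plk1 included, beside 12.6% of all probes.

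Bub1b, a checkpoint protein that holds back anaphase, had levels of 5.67, 5.54, 5.84 and 6.32 in control livers and 5.73, 6.29, 6.07 and 6.01 in Mogat1 ASO livers. These overlapped and differed by 0.19 (95% interval -0.22 to 0.59). Cdk1, the main mitotic kinase, was detected on 1 control array and on all 4 Mogat1 ASO arrays. It differed by 0.52 (0.04 to 1.00, adjusted p = 0.148), with replicate 2 of the Mogat1 ASO group at 6.42 and the other 7 arrays at 5.08 to 5.80. Aurka, a kinase of the spindle poles, differed by 0.21 (-0.27 to 0.68). All 6 tested genes of this role had a difference above 0, with a median of 0.47, but most of them were selected in part by their detection in Mogat1 ASO livers.

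The E2F factor itself was called near the threshold. E2f1, an activator of replication genes, had levels of 6.90, 7.57, 7.43 and 7.65 in control livers and 7.57, 8.13, 8.26 and 8.13 in Mogat1 ASO livers. Mogat1 ASO replicate 1 lay inside the control range and the other 3 above it. The rise was 1.55-fold (log2 difference 0.63, SE 0.19, n = 4 each, adjusted p = 0.049 in limma). The call was lost in 7 of the 8 fits that left out 1 array, all but the one without Mogat1 ASO replicate 1, with an adjusted p of up to 0.135 (without Mogat1 ASO replicate 3). It also ended with scaling to the 75th percentile (0.0577) and with wider filters (0.0508 and 0.0608).

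Brakes of the cycle gave no call. Cdkn2c, an inhibitor of Cdk4 and Cdk6, had levels of 8.26, 7.64, 7.75 and 7.84 in control livers and 7.93, 8.44, 8.44 and 8.31 in Mogat1 ASO livers. The 2 arrays numbered 1 were the ones that crossed between the groups. The difference of 0.41 (95% interval 0.06 to 0.75, adjusted p = 0.118) was called without control ASO replicate 1 (0.54, adjusted p = 0.035) or without Mogat1 ASO replicate 1 (0.52, adjusted p = 0.0299). Cdkn1b, an inhibitor of cyclin E and cyclin A kinases, differed by 0.24 (-0.10 to 0.58). Rb1, the retinoblastoma protein gene, differed by -0.22 (-0.50 to 0.05), with 3 of the 4 Mogat1 ASO arrays below every control array. A second Rb1 probe differed by -0.27 without passing (adjusted p = 0.134).

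**Figure D3:**
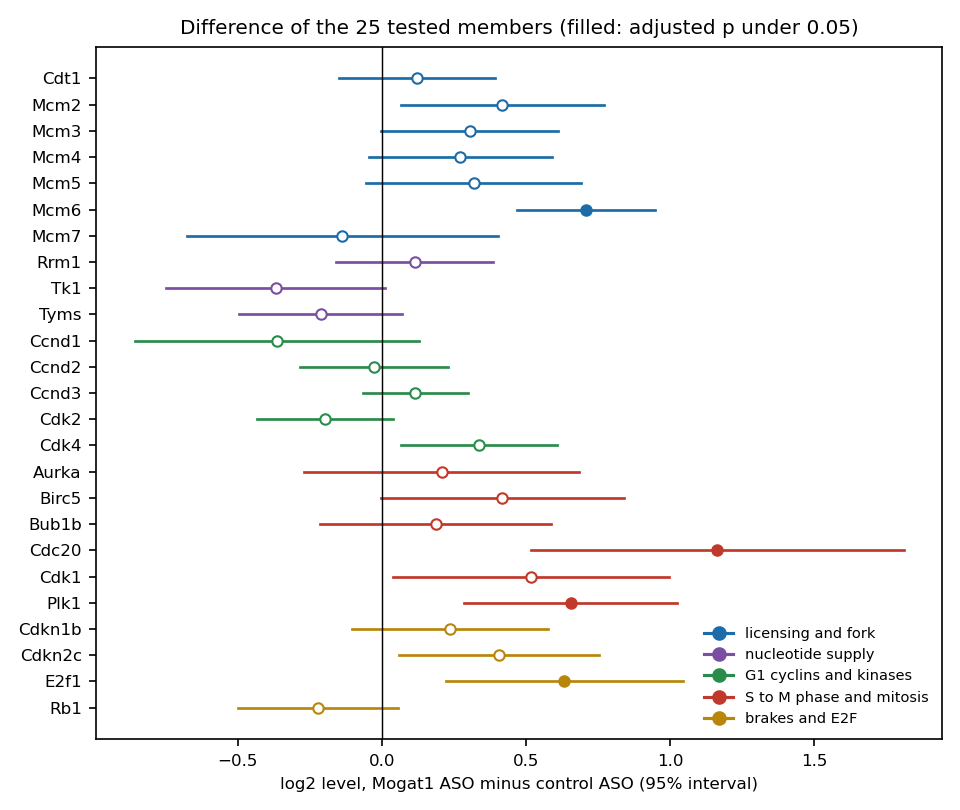
Difference in log2 level, Mogat1 ASO minus control ASO (x axis), of the 25 tested members (y axis, coloured by role), with 95% intervals from limma; filled points have an adjusted p under 0.05. Mcm6, Cdc20, Plk1 and E2f1 are filled, and the intervals of 17 of the other 21 include 0.

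Read across members, the arrays differed within the groups. The median deviation of the 25 tested members from their own mean over 8 arrays was -0.27, -0.17, -0.09 and -0.04 in control livers and 0.11, 0.32, 0.05 and -0.09 in Mogat1 ASO livers. Mogat1 ASO replicate 4 lay within the control range and replicate 2 was the highest. For the 6 tested genes of S phase to mitosis the values were -0.44, -0.42, -0.18 and 0.0015 against 0.19, 0.66, 0.02 and 0.05. These do not overlap, with control ASO replicate 4 and Mogat1 ASO replicate 3 close together. Of the 6 genes, Plk1 was detected on no control array, Cdk1 on 1 and Cdc20 and Aurka on 2, and each on all 4 Mogat1 ASO arrays, so the filter itself favoured genes high in that group and the separation is no support for a group difference. For the 5 tested G1 genes the values were -0.11 to 0.11 over all 8 arrays, with no separation of the groups. Leaving out both arrays numbered 1 gave 6 called members, of which Ccnd1 was lower and Mcm6, Cdc20, E2f1, Cdk4 and Cdkn2c higher.

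**Figure D4:**
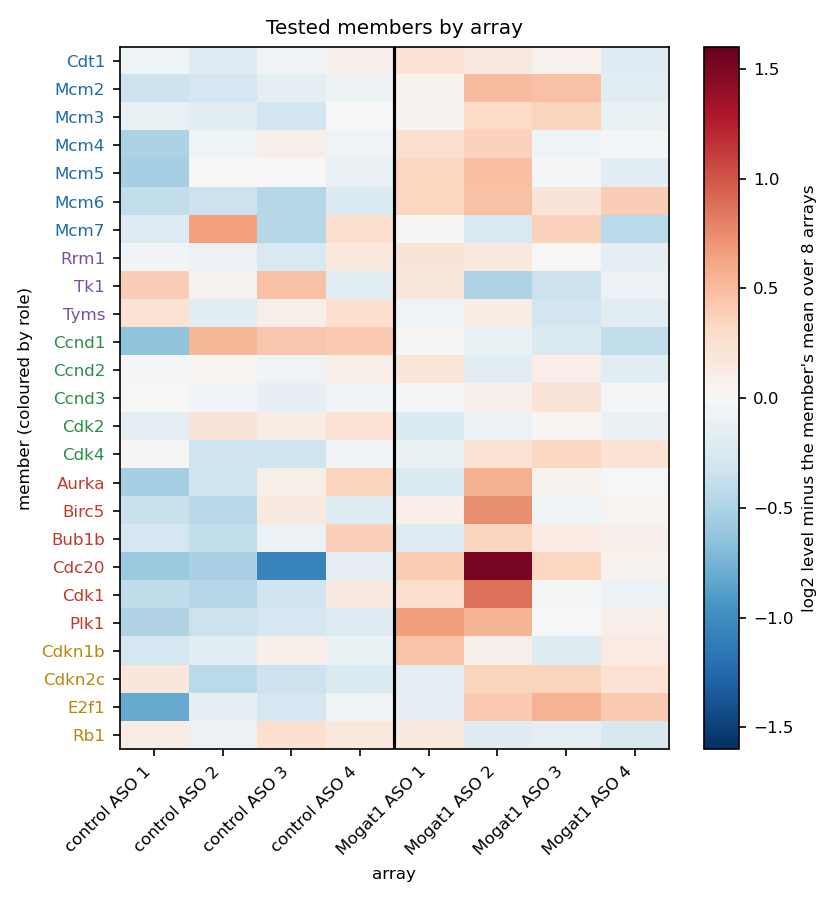
Level of each of the 25 tested members (rows, coloured by role) on each array (columns) as its log2 level minus its mean over the 8 arrays, from blue (lower) to red (higher); the black line parts control ASO from Mogat1 ASO arrays. The S phase to mitosis rows are reddest on Mogat1 ASO replicate 2, and Ccnd1 is blue on control ASO replicate 1.

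The rest of the pathway was read from 126 further cell cycle genes, of which 80 were tested, 8 rose and 4 fell (15%, against 13.3% of all genes called). Among 19 tested genes of mitosis and cytokinesis 3 were called, all higher (15.8%, against 13.3% of all genes called). Of the 19 differences 4 were below 0. At an unadjusted p under 0.05 in limma, 6 were higher and 2 lower. Prc1, which bundles spindle microtubules, rose 2.01-fold (adjusted p = 0.0172, log2 SE 0.23), the spindle checkpoint gene Mad2l1 1.59-fold (SE 0.17) and the kinetochore gene Zwint 1.27-fold (SE 0.10). In the group of 30 origin and fork genes, Chaf1a, a histone chaperone subunit of the fork, rose 1.42-fold (SE 0.14) and Pold3, a subunit of DNA polymerase delta, was 1.38-fold lower (SE 0.11).

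In 9 genes of nucleotide supply, Dtymk, a kinase of thymidylate, rose 1.35-fold (SE 0.11) and Impdh2, an enzyme of guanine nucleotide synthesis, 1.24-fold (SE 0.09). The nucleoside transporter gene Slc29a1 was 1.64-fold (SE 0.14) and the folate enzyme gene Shmt1 1.43-fold (SE 0.14) lower. Of 9 E2F and DREAM complex genes, E2f3 rose 1.62-fold (SE 0.15) and Tfdp2, a dimer partner of E2F factors, was 1.69-fold lower (SE 0.16). None of 8 checkpoint kinase and phosphatase genes was called by limma, and none had an unadjusted p under 0.05 (0 of 8).

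Of 5 CDK inhibitor genes outside the 43, Cdkn1a rose, the gene for p21, which blocks cyclin-dependent kinases. Its log2 levels were 8.33, 6.20, 6.73 and 7.67 in control livers and 8.12, 9.40, 9.35 and 9.65 in Mogat1 ASO livers. Mogat1 ASO replicate 1 lay below control ASO replicate 1 and the other 3 lay above every control array. The rise was 3.72-fold (adjusted p = 0.0173 in limma, log2 SE 0.44). The calls of Slc29a1, Tfdp2, E2f3 and Prc1 held in all 8 fits that left out 1 array. That of Cdkn1a was lost without control ASO replicate 3, Mogat1 ASO replicate 3 or Mogat1 ASO replicate 4 (adjusted p up to 0.0578), and with a robust variance (0.0776). Pold3 was lost without control ASO replicates 2 or 3 or Mogat1 ASO replicate 3 (up to 0.0625), and Dtymk without control ASO replicates 2 or 3 or Mogat1 ASO replicate 2 (up to 0.0778). Mad2l1 was lost without control ASO replicates 1, 2 or 3 or Mogat1 ASO replicate 2 (up to 0.0708), and Shmt1 without control ASO replicates 2 or 3 or Mogat1 ASO replicates 3 or 4 (up to 0.0996). Among these fits, Chaf1a held only without control ASO replicate 1 or Mogat1 ASO replicate 1 (up to 0.0989 otherwise), Impdh2 only without Mogat1 ASO replicate 1 or 2 (up to 0.110) and Zwint only without control ASO replicate 3 or Mogat1 ASO replicate 1 (up to 0.104). Other settings ended some of these calls too. With the mean of a gene's probes Dtymk (0.231), Zwint (0.214) and Shmt1 (0.0502) were lost, and with scaling to the 75th percentile Impdh2 (0.185) and Zwint (0.148). Without a filter Impdh2 (0.107), Zwint (0.0937), Chaf1a (0.0573) and Dtymk (0.0512) were lost, and with the replicate block Impdh2 (0.074), Zwint (0.0677) and Chaf1a (0.0611). Leaving out 1 array gave 5 called genes of the 80 without control ASO replicate 2 or without control ASO replicate 3, 6 without Mogat1 ASO replicate 3, 7 without Mogat1 ASO replicate 4, and 19 without Mogat1 ASO replicate 1.

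Markers of cells that liver RNA can hold moved beside these genes in part. Of 10 macrophage and Kupffer cell markers 1 was called, Lyz2, which rose 1.57-fold (SE 0.16, adjusted p = 0.0228) and was lost without control ASO replicate 3 (0.0715) or Mogat1 ASO replicate 3 (0.063) and with the mean of its probes (0.0699). At an unadjusted p under 0.05 in limma, 5 of these 10 markers passed, 4 higher and 1 lower, beside 28.8% of all genes in either direction. The summed normalized intensity of the 10 was 8924 to 10822 in control and 10250 to 15441 in Mogat1 ASO livers, with 2 Mogat1 ASO arrays above every control array. Of 8 endothelial markers, Lyve1 rose 2.43-fold (SE 0.17), Egfl7 rose 1.35-fold (SE 0.09) and Stab2 was 1.48-fold lower (SE 0.10); their sum was 14499 to 16618 and 15077 to 16308. Of 6 stellate cell markers Reln was 1.33-fold lower (SE 0.11), a call that held in 3 of the 8 fits that left out 1 array and not without a filter (0.0501), with sums of 9016 to 11798 and 8604 to 11925.

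No marker was called among 7 of hepatocytes, 5 of T, B and NK cells, 4 of neutrophils, 4 of cholangiocytes and 2 of erythroid cells in limma, and at an unadjusted p under 0.05 the 2 that passed were both hepatocyte markers. The hepatocyte sum was 204881 to 236237 in control and 194355 to 215487 in Mogat1 ASO livers, with 3 Mogat1 ASO arrays below every control array. For T, B and NK cells it was 230 to 298 and 231 to 323, with Cd4, Cd8a and Ms4a1 detected on no array. The neutrophil sum was 289 to 1588 and 539 to 731, the cholangiocyte sum 1055 to 1299 and 1054 to 2019 with Krt19, Epcam and Cftr detected on no array, and the erythroid sum 22973 to 38143 and 26947 to 53671. Their part in the cell cycle values was not tested.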

How the data were processed

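Per the file headers, each array has 2 deposited columns, an unlogged intensity per probe and its detection p-value; no source used here gives the software. The deposited value table holds a processed intensity of the same probes (38.0% to 38.1% of values below 0, so background-subtracted), used as an alternative. Per the labels' protocols, RNA went through T7 linear amplification before biotin labelling.

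Here, signals were background-corrected by normexp with controls inferred from the detection p, given an offset of 16, quantile normalized and logged to base 2 (neqc, limma 3.58.1, R 4.3.3). The test, two-sided and limited to probes with a detection p under 0.05 on 4 or more of the 8 arrays, was run with lmFit and eBayes (trend), without a replicate block, with Benjamini-Hochberg adjustment over all 16487 probes. A gene was represented by its tested probe of highest mean. The steps were tested on simulated data, with changes put only into probes brighter than those of Cdc20 and Plk1. Members near background were thus not covered. Tables were joined in Python 3.11.15 (pandas 2.3.3) and drawn with matplotlib 3.10.9. Precision is limited by the number of arrays.

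Symbols were updated through RefSeq (GRCm38.p6): of the probes, 27740 already had the current symbol and 8035 got a new one, while 9384 matched no gene and 122 more than 1. For a probe detected on no array of a group and on every array of the other, the fold is a bound. The dim group's levels were first raised, on each array, to that array's lowest detected level where they lay under it.

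The members, lists and tests were chosen with earlier results of these data known. By rule, every array is given for members past the threshold or with groups that do not overlap and for the 2 brightest tested members of each role, and up to 4 called genes, and Cdkn1a, are named from the further lists. Added to these after their values were seen were the per-array levels of Mcm2, Cdk4 and the non-member Cdkn1a. Further lists were 6 of other cell cycle genes and 8 of cell type markers.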

Additional observations from a re-analysis of the deposited data

Results flagged for a closer look

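The 25 tested members were looked at in each group for an array far from the other 3, which makes 50 groups of 4, and chance alone sets apart about 1 in 20 such groups. The Ccnd1 level of control ASO replicate 1, 9.38 on the log2 scale, was the 1 value that stood apart: the other control arrays had 10.44 to 10.55, and the gap to them took 0.901 of the group's range.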

How the results depend on the processing

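Of the 4 called members, Mcm6 kept its call in all 20 alternatives, Cdc20 in 15 of 19, Plk1 in 13 of 19 and E2f1 in 10 of 20, and none changed sign. The number of members called was 4, and 2 when only probes detected at p under 0.01 on all 8 arrays were tested (2 called higher, of 17 tested). Under that filter Mcm6 and E2f1 stayed called, and Cdc20 and Plk1 were not tested. Leaving out 1 array gave 1 to 6 members called and 1 to 6 called higher, 5 to 19 of the other cell cycle genes and 886 to 2261 of all genes, and a median difference of the tested members of 0.15 to 0.33. Array weights gave 19 other cell cycle genes and 2610 of all genes against 12 and 1549, and leaving out both arrays numbered 1 gave 2446; the cause was not tested. Without some single arrays the sign of 2 uncalled members turned: Mcm7 ranged from -0.31 to 0.058 and Ccnd2 from -0.10 to 0.028. The replicate block gave 3 members (Plk1 was lost, adjusted p = 0.0516), 11 other cell cycle genes and 1489 of all genes; same-numbered arrays correlated at -0.03 to 0.20 in their deviations from the group means, so the numbers were not taken as pairs. Across the alternatives that leave out no array, the median difference of the tested members was 0.11 to 0.24, the lowest without background correction. Folds of members near background, Cdc20 and Plk1 among them, depend on that correction and on the offset. A block for the slide was not run, because the headers give no slide.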
